A study of Mus musculus with 15 samples.

Results

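Prostaglandin synthesis and breakdown was described through 10 genes, chosen by symbol from the 35880 genes of the expression table. These were the phospholipases A2 *Pla2g2d*, *Pla2g5* and *Pla2g4a*, the cyclooxygenases *Ptgs1* and *Ptgs2*, the prostaglandin E synthases *Ptges*, *Ptges2* and *Ptges3*, and the degrading enzymes *Hpgd* and *Ptgr1*. All 10 had an entry in the table and 9 passed the filter on low values, since *Hpgd* was listed at 0 in every sample. RNA came from 5 lines of luciferase-carrying mouse Lewis lung carcinoma (LL2/Luc2) cells, cultured in DMEM with 10% serum and sampled in 3 biologic replicates each, for 15 samples in all. LL2 WT was the parental culture. *KEAP1* KO #1, #2 and #3 were separate clones grown from single cells after CRISPR deletion of *Keap1*, the gene of the adaptor that marks the transcription factor NRF2 for degradation. *NRF2* KO was a single clone in which *Nfe2l2*, the gene of NRF2, had been targeted in the same way. Every knockout line had passed through nucleofection and single-cell sorting and LL2 WT had not, so the knockout, the clone and this handling cannot be told apart within any line, and *NRF2* KO rests on 1 clone.

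Prostaglandins are made from arachidonic acid. Phospholipases A2 cut the fatty acid from membrane phospholipids, the cyclooxygenases COX-1 (*Ptgs1*) and COX-2 (*Ptgs2*) turn it into an unstable endoperoxide, and terminal synthases convert that into prostaglandin E2 or a related prostanoid. COX-1 is usually made constantly and COX-2 is induced by growth factors and inflammatory signals. Breakdown starts with 15-hydroxyprostaglandin dehydrogenase (*Hpgd*) and goes on with reductases such as *Ptgr1*. In lung tumors prostaglandin E2 is known for restraining T cells and shaping macrophages.

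The targeted genes were checked first. *Keap1* lay between 22.0 and 24.0 CPM (read counts scaled to the library total, the unit of all levels here) in LL2 WT, between 10.8 and 12.5 CPM in *KEAP1* KO #1, and between 3.78 and 7.29 CPM in the other two *KEAP1* KO clones. The mean of *Nfe2l2* transcript was 186 CPM in the parental line and 119 CPM in *NRF2* KO. It was 96.4, 123 and 116 CPM in *KEAP1* KO #1, #2 and #3, where *Nfe2l2* was not targeted. A lower level of this transcript is therefore no mark of the *NRF2* knockout. *Nqo1*, a classical NRF2 target, averaged 30.3 CPM in LL2 WT, 276 to 488 CPM in the *KEAP1* KO clones and 9.82 CPM in *NRF2* KO. Samples summed to between 998941 and 999306 CPM over the named genes, and their read numbers are not known.

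The cultures were also examined for other cell types. Among 11 macrophage and leukocyte markers, *Adgre1* (F4/80) was listed at 0 in all samples and *Ptprc* (CD45) reached at most 0.192 CPM. The list nonetheless summed to 33.1 to 46.9, 34.7 to 50.5 and 45.2 to 69.5 CPM in *KEAP1* KO #1, #2 and #3, against 16.9 to 18.7 CPM in parental cells and 16.5 to 20.2 CPM in *NRF2* KO. Of its 6 tested genes, *Cd14* and *Mrc1* were called higher in #1, *Cd68* and *Mrc1* in #2 and all of these in #3, *Lyz2* was called lower in #2 and #3, and 0 were called in *NRF2* KO. The 5 mast cell markers together never exceeded 0.0857 CPM. The epithelial markers *Epcam* and *Cdh1* stayed at or below 0.0618 CPM, although *Krt8* and *Krt18* were present at 65.1 to 575 CPM, and the 6 lung epithelial markers summed to at most 1.18 CPM, with *Sftpb* called higher in all 3 clones. The 8 mesenchymal and fibroblast markers, mostly *Vim*, summed to 3574 to 5815 CPM in LL2 WT, 3238 to 4564 CPM in *NRF2* KO and 1554 to 2160 CPM over the *KEAP1* KO clones, in which 1, 5 and 6 of them were called lower (#1, #2 and #3) and 1 was called higher (*Pdgfrb* in #1). The 4 endothelial markers summed to 2.48 to 7.49 CPM over all samples, and 1 of the 2 tested, *Cdh5*, was called higher in #2 and #3, with means of 0.0227 CPM in LL2 WT, 0.104, 0.819 and 1.25 CPM in the clones and 0.197 CPM in *NRF2* KO. The share of these marker shifts in the prostaglandin results was not tested, and in bulk RNA fewer cells of a type and less RNA per cell cannot be told apart.

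Differences between lines were tested with limma on log2(CPM + 0.1), and a log2 fold change below is a difference on that scale, which understates the change of low genes. Calls required 2 things, an adjusted p below 0.05 (Benjamini-Hochberg, over the 14652 genes tested) and a log2 fold change beyond 1 in either direction. Against LL2 WT, 4 of the 9 tested members were called in *KEAP1* KO #1, where 8.54% of all tested genes were called. In *KEAP1* KO #2 it was also 4 of 9, against 13.7% of all genes, and in *KEAP1* KO #3 it was 4 of 9, against 13.4%. They were *Pla2g2d*, *Pla2g5*, *Pla2g4a* and *Ptgs2* each time, and every call was a rise; genes called higher made up 4.55%, 5.94% and 6.09% of all genes in #1, #2 and #3. In *NRF2* KO 0 of 9 members were called by limma, against 0.464% of all genes, and 3 of the 9 had an unadjusted p under 0.05. The median log2 fold change over the 9 members was 0.46, 0.78, 0.88 and −0.25 in #1, #2, #3 and *NRF2* KO, beside 0.11, 0.03, 0.02 and 0.04 over all tested genes. These 4 comparisons share the 3 LL2 WT samples. Rescaling CPM by the median ratio moved the median of all genes in #1 from 0.113 to 0.0101 and the split of genes called higher and lower from 667 and 584 to 553 and 724, with the same 4 members called.

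**Figure D1:**
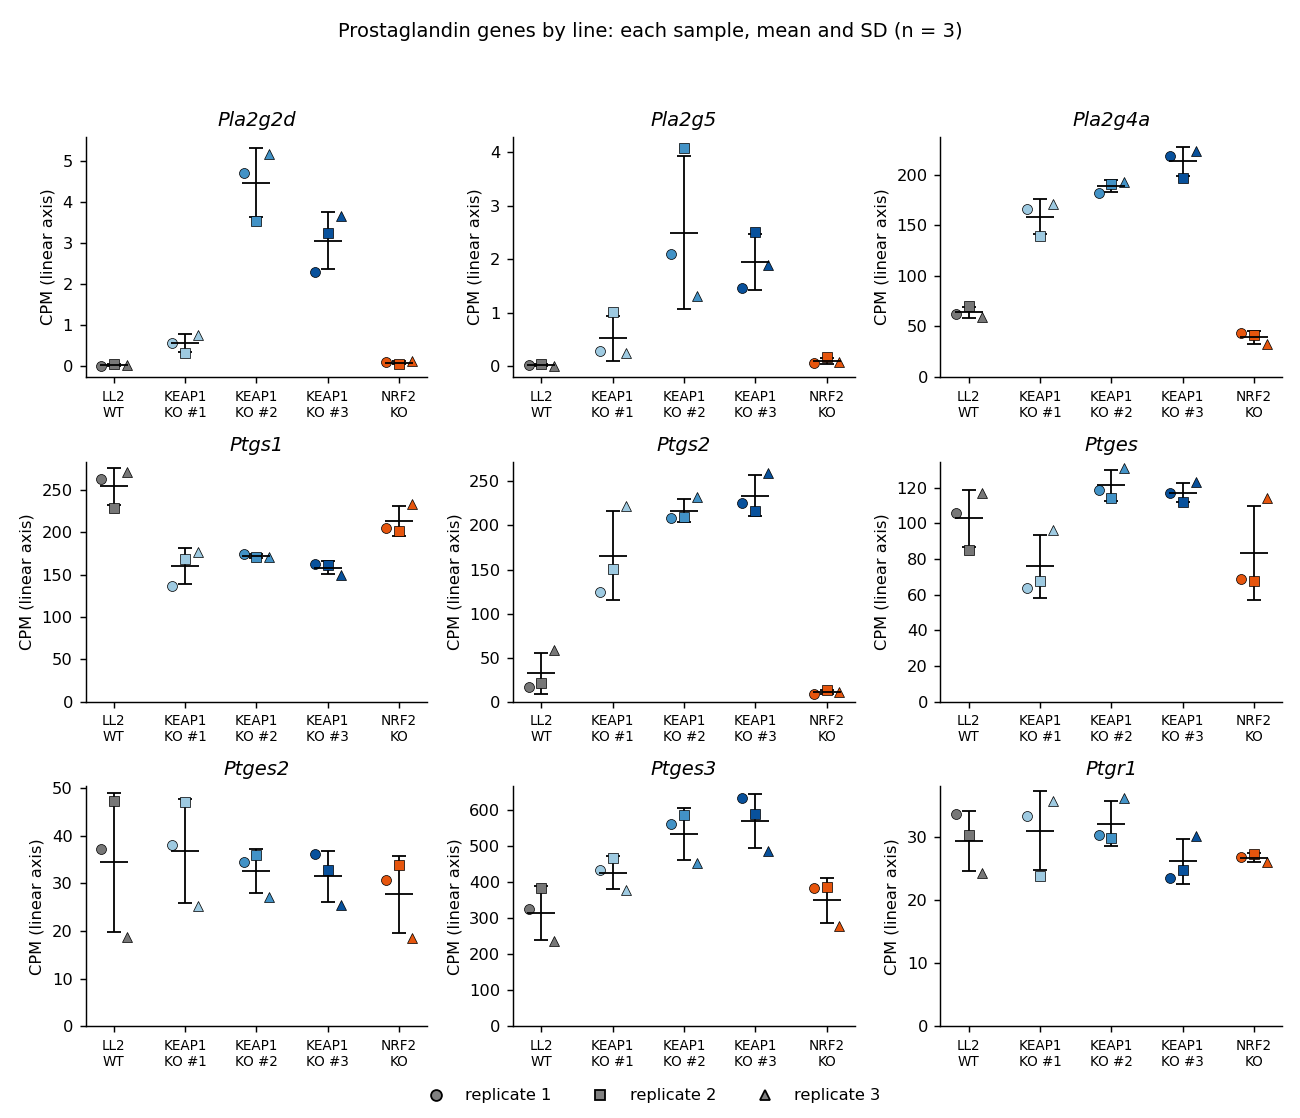
CPM (linear axes, each panel with its own scale) in every sample of the 5 lines, for the 9 members that were tested. Points are single samples, with the marker shape giving the replicate number, and bars give the mean and SD of 3 samples; *Pla2g2d*, *Pla2g5*, *Pla2g4a* and *Ptgs2* lie higher in all 9 *KEAP1* KO samples than in any LL2 WT sample, and *Ptgs1* lies lower.

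The start-site regions of the 4 genes that rose, and of *Ptges3*, are printed because the first 4 moved together and *Ptges3* is the member with a match to the NRF2-binding sequence. All 10 members had a window of 250 bases before to 50 after a transcription start in the RefSeq promoter table (build GRCm38.p6, 12 windows in all), which was searched on both strands for 7 motifs. The stretches below run 5′ to 3′ from 250 bases before to 30 after the start, in lower case, and capitals mark every match.
Pla2g2d, chr4:138775485-138775764, plus strand: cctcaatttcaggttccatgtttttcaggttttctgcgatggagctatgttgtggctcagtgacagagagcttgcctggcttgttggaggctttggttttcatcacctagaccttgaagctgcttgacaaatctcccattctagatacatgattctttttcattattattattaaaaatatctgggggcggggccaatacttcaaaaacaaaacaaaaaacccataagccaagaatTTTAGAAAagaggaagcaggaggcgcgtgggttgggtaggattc
Pla2g5, chr4:138863440-138863719, minus strand: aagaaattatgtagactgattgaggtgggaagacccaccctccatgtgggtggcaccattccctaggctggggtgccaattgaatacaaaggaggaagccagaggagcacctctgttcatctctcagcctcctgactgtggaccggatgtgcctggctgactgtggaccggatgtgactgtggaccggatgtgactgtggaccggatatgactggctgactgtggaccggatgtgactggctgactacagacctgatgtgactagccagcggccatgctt
Pla2g4a, chr1:149961261-149961540, minus strand: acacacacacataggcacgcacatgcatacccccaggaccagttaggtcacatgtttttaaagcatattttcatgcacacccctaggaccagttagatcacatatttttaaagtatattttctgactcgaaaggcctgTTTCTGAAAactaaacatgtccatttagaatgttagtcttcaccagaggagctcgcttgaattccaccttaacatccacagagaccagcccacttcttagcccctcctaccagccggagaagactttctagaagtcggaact
Ptgs2, chr1:150099781-150100060, plus strand: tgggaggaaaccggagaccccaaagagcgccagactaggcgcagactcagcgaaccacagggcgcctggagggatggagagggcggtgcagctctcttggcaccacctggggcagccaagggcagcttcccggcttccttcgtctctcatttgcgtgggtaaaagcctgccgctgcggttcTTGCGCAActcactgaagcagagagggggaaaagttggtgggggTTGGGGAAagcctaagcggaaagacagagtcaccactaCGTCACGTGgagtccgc
Ptges3, chr10:128058732-128059011, plus strand: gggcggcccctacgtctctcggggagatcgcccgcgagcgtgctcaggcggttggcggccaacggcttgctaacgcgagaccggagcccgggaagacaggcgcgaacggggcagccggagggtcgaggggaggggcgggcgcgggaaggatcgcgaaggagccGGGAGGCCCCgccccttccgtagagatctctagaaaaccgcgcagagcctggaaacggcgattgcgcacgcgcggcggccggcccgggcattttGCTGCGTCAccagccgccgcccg
The antioxidant response element core TGACNNNGC, the sequence that NRF2 binds with small MAF proteins, was matched in 12.4% of all 32851 windows, and among the members only in *Ptges3*, on the reverse strand from base +8 (bases are counted from +1 at the start). In the *Ptgs2* window the E-box CACGTG, found in 7.15% of all windows, began at +17 and overlapped the cyclic AMP response element core TGACG on the reverse strand (20.8% of all windows), from +14. The C/EBP-like pattern TTNNGNAA, found in 40.7% of all windows, occurred at −69 and −25 in *Ptgs2*, at −112 and −111 in *Pla2g4a* and at −14 in *Pla2g2d*. *Ptges3* also held TGACG from +12, inside the antioxidant response element match, and an NF-kB match from −87 (8.46% of all windows). The AP-1 pattern TGANTCA (7.81% of all windows) and the TATA box TATAAA (13.6%) were in none of the 5 printed stretches, and the *Pla2g5* stretch held no match at all. The window of *Nqo1*, the classical NRF2 target, was searched in the same way and held no match to TGACNNNGC. The lack of this match in a window is therefore not informative about NRF2 binding. A match is only a run of letters in this window, and enhancers farther away were not examined.

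*Pla2g2d*, which encodes a secreted phospholipase A2 best known from dendritic cells and macrophages, was near absent in the parental line and present in every *KEAP1* KO sample. It lies on chromosome 4 of GRCm38.p6 (chr4:138775735-138782052). Replicates 1 to 3 were at 0, 0.0365 and 0.0239 CPM in parental cells, whereas *NRF2* KO gave 0.0907, 0.04 and 0.114 CPM. In *KEAP1* KO #1 they were at 0.567, 0.325 and 0.762 CPM. The clones #2 and #3 stood higher, with 4.71, 3.54 and 5.19 CPM and with 2.29, 3.24 and 3.66 CPM. Thus all 9 *KEAP1* KO samples lay above every sample of LL2 WT and *NRF2* KO, and #1 lay below the other two clones without overlap. Of all tested genes, 12.9% had all 9 samples above every LL2 WT sample and 9.57% had them above every *NRF2* KO sample. The share with both orders, or with #1 below the other clones, was not counted. Relative to LL2 WT the log2 fold change came to 2.39 in #1 (adjusted p = 0.000228 from limma), 5.25 in #2 (adjusted p = 1.52e-07) and 4.70 in #3 (adjusted p = 3.70e-07), with a standard error of 0.32. These sizes depend on the pseudocount and are no bound, because LL2 WT was under 0.1 CPM throughout, about 3 reads at the study's average depth. With pseudocounts of 0.5 and 1 CPM the value in #1 fell to 0.99 and 0.59 and was not called. All 3 *NRF2* KO samples also lay above every LL2 WT sample, an order whose share over all tested genes was not counted. *NRF2* KO and LL2 WT were both near that floor and no fold is given (adjusted p = 0.549).

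*Pla2g5*, the neighbouring gene (chr4:138799247-138863562), encodes another secreted phospholipase A2, which hydrolyses phosphatidylcholine efficiently. Its replicates were at 0.018, 0.0337 and 0 CPM in parental cells, and *NRF2* KO gave 0.0614, 0.166 and 0.0787 CPM. They were at 0.283, 1.01 and 0.251 CPM in *KEAP1* KO #1, at 2.09, 4.08 and 1.3 CPM in #2 and at 1.46, 2.50 and 1.88 CPM in #3. Here too the 9 *KEAP1* KO samples were above all samples of the other two lines, but replicate 2 was the highest in each clone and the spread was wide. The shares of all tested genes given for *Pla2g2d* apply to these orders as well. Relative to the parental line it differed by a log2 fold change of 2.19 in #1 (adjusted p = 0.00622), 4.33 in #2 (adjusted p = 2.74e-05) and 4.11 in #3 (adjusted p = 3.94e-05), with a standard error of 0.48. The call in #1 was lost with pseudocounts of 0.5 and 1 CPM (adjusted p = 0.0652 and 0.145) and with vooma weights (adjusted p = 0.0604). As for *Pla2g2d*, all 3 *NRF2* KO samples lay above every LL2 WT sample, and the share of genes with this order was not counted. Levels in these lines were low and no fold is given (adjusted p = 0.623 from limma). Both genes overlap other annotated genes, and since the strand setting of the quantification is not given in the sources used here, reads of overlapping genes on opposite strands cannot be told apart.

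*Pla2g4a* encodes cytosolic phospholipase A2 alpha, the calcium-dependent enzyme that prefers arachidonate and feeds the cyclooxygenases. Of the 3 phospholipases it alone had a sizeable level in all lines. LL2 WT samples were at 62.1, 70.3 and 59.0 CPM. Samples of *KEAP1* KO #1 were at 166, 139 and 171 CPM, those of #2 at 182, 191 and 193 CPM, and those of #3 at 219, 197 and 224 CPM, while *NRF2* KO was at 43.8, 41.2 and 32.2 CPM. No *KEAP1* KO sample overlapped LL2 WT, and all 3 *NRF2* KO samples lay below every LL2 WT sample. Mean levels were 2.48-fold, 2.96-fold and 3.34-fold those of LL2 WT on the log scale in #1, #2 and #3 (log2 fold changes 1.31, 1.56 and 1.74, standard error 0.12, adjusted p = 1.13e-05, 1.01e-06 and 3.77e-07). *NRF2* KO was 0.609-fold (log2 fold change −0.72, 95% interval −0.97 to −0.46, adjusted p = 0.0144), which passed the test but not the fold limit. With only LL2 WT and *NRF2* KO in the model its adjusted p was 0.377, and it was 0.0586 without LL2 WT replicate 1 and 0.0529 without *NRF2* KO replicate 2.

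*Ptgs1*, the constitutive cyclooxygenase (chr2:36216742-36258593), went the other way. Parental samples stood at 263, 229 and 271 CPM, and *NRF2* KO samples at 205, 202 and 234 CPM. In the *KEAP1* KO clones it was at 136, 168 and 177 CPM (#1), 175, 171 and 171 CPM (#2) and 163, 162 and 150 CPM (#3). All 9 of these samples were below the lowest LL2 WT sample, an order seen in 7.69% of all tested genes, and *NRF2* KO overlapped LL2 WT. Log2 fold changes of −0.67, −0.56 and −0.68 in #1, #2 and #3 had adjusted p of 0.000612, 0.00131 and 0.000303 (standard error 0.10), so each passed the test but stayed short of a fold of 2 and was not called. Genes with an adjusted p under 0.05 at any fold made up 23.2%, 31.9% and 31.4% of those tested. In *NRF2* KO the value was −0.25 (adjusted p = 0.385).

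*Ptgs2*, the inducible cyclooxygenase (chr1:150100031-150108234), had its samples spread from 8.05 to 260 CPM over the 5 lines. LL2 WT samples were at 16.4, 21.2 and 58.9 CPM, with replicate 3 well above the other two. *KEAP1* KO #1 samples were at 124, 151 and 222 CPM, #2 samples at 209, 210 and 232 CPM, and #3 samples at 225, 216 and 260 CPM. *NRF2* KO samples were at 8.05, 13.1 and 11.0 CPM. The *KEAP1* KO samples did not overlap LL2 WT, and the highest *NRF2* KO sample was below the lowest LL2 WT sample. Mean *Ptgs2* levels on the log scale were 5.85, 7.88 and 8.48 times those of LL2 WT in #1, #2 and #3 (log2 fold changes 2.55, 2.98 and 3.08, standard error 0.37, adjusted p = 0.000361, 6.05e-05 and 4.18e-05). Without LL2 WT replicate 3 these log2 fold changes were 3.1, 3.53 and 3.63. In *NRF2* KO the log2 fold change was −1.37 (95% interval −2.17 to −0.58), which did not pass the test (adjusted p = 0.153). It was −0.82 (adjusted p = 0.235) without LL2 WT replicate 3, and it was called with the replicate number as a block (adjusted p = 0.0263).

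*Pla2g4a* and *Ptgs2* thus had the same order of samples, with all 9 *KEAP1* KO samples above and all 3 *NRF2* KO samples below every LL2 WT sample. Over all tested genes, 74 of 14652 (0.505%) had this order. The 9 *KEAP1* KO samples alone were above LL2 WT in 12.9% of genes, and the 3 *NRF2* KO samples alone were below it in 4.53%.

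Because *Ptgs2* was higher and *Ptgs1* lower, their ratio within a sample shifted. The ratio of *Ptgs2* to *Ptgs1* CPM was 0.124 ± 0.0819 (SD, n = 3) in LL2 WT and 0.0505 ± 0.0130 in *NRF2* KO. It was 1.02 ± 0.20, 1.26 ± 0.0889 and 1.48 ± 0.218 in *KEAP1* KO #1, #2 and #3, so reads of *Ptgs2* equalled or exceeded those of *Ptgs1* on average in every clone. In #1 the replicates were at 0.908, 0.900 and 1.25, so its mean passed 1 through replicate 3 alone. The *Ptgs2* transcript is longer, at 4453 bases against 2867 for the longest coding transcript of each gene in the annotation used here. On the scale of CPM per kb the ratio was 0.0800 in LL2 WT, 0.657, 0.812 and 0.953 in the 3 clones and 0.0325 in *NRF2* KO. It passed 1 in replicate 3 of *KEAP1* KO #3 alone, at 1.11, so the 2 transcripts came close to parity in #3 and *Ptgs1* stayed ahead in the rest.

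**Figure D2:**
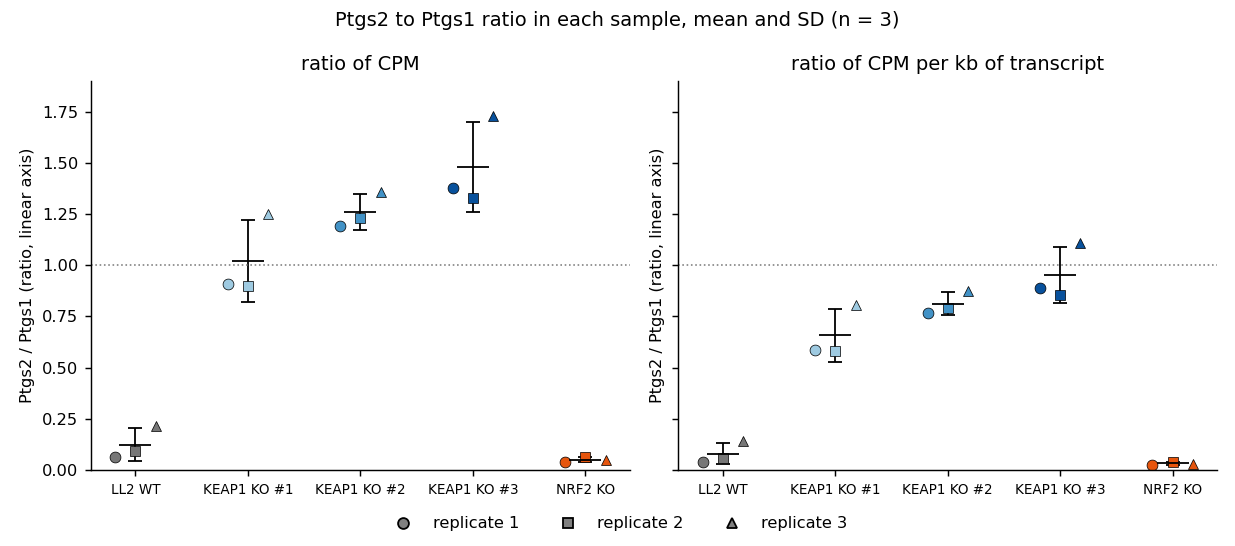
Ratio of *Ptgs2* to *Ptgs1* in each sample of the 5 lines (linear axis), from CPM on the left and from CPM per kb of transcript on the right. Points are single samples, bars the mean and SD of 3 samples, and the dotted line a ratio of 1; the *KEAP1* KO samples range from 0.900 to 1.73 on CPM, and LL2 WT and *NRF2* KO stay at or below 0.217.

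None of the 3 prostaglandin E synthases was called in any comparison with LL2 WT. *Ptges* encodes the inducible microsomal synthase that is usually coupled to COX-2. Samples were at 106, 85.3 and 117 CPM in parental cells, 63.7, 67.4 and 96.4 CPM in *KEAP1* KO #1, 119, 114 and 131 CPM in #2, 117, 112 and 123 CPM in #3, and 69.0, 67.6 and 114 CPM in *NRF2* KO. All lines overlapped LL2 WT. Log2 fold changes were −0.45, 0.25, 0.21 and −0.33 in that order of knockout lines, with a standard error of 0.20 and adjusted p between 0.122 and 0.597.

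*Ptges2*, another membrane-associated synthase, had a mean of 34.4 ± 14.5 CPM in parental cells, against 36.8 ± 10.9, 32.5 ± 4.65, 31.4 ± 5.42 and 27.7 ± 8.0 CPM in *KEAP1* KO #1, #2, #3 and *NRF2* KO (SD, n = 3). Its log2 fold changes lay between −0.26 and 0.15 with a standard error of 0.33, and their signs changed when single samples were left out. *Ptges3*, the cytosolic synthase that is also the HSP90 co-chaperone p23, had the highest level of the 10 genes. It was at 325, 382 and 235 CPM in LL2 WT, 432, 467 and 378 CPM in #1, 559, 586 and 451 CPM in #2, 632, 589 and 485 CPM in #3, and 382, 386 and 277 CPM in *NRF2* KO. Samples of #2 and #3 were above every LL2 WT sample and those of #1 and *NRF2* KO overlapped it. The share of all tested genes with this order was not counted. The differences of 0.78 in #2 (adjusted p = 0.00643) and 0.88 in #3 (adjusted p = 0.00311) passed the test but not the fold limit, and 0.46 in #1 did not pass it (adjusted p = 0.09). Of the distinct 31-base stretches in the *Ptges3* transcripts, 20.9% also occur in transcripts of 7 other genes, foremost the pseudogene *Ptges3-ps*, so its level is uncertain. This share was at most 3.95% for the other members.

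Of the degrading enzymes, *Hpgd* (chr8:56294552-56321046), whose enzyme inactivates prostaglandins and which is often low in tumors, was listed at 0 in all 15 samples. It could not be tested. A listing at 0 throughout was not rare, since 25645 of the 35880 genes were above 0 in at least 1 sample. The 10 housekeeping genes examined for comparison were above 0 in every sample. They cannot show whether *Hpgd* transcript was absent or its entry received no reads for another reason. *Ptgr1*, a reductase of the next step that is also counted among antioxidant genes, was at 33.5, 30.2 and 24.2 CPM in LL2 WT. It was at 33.3, 23.8 and 35.7 CPM in *KEAP1* KO #1, 30.3, 29.8 and 36.1 CPM in #2, 23.4, 24.7 and 30.1 CPM in #3, and 26.8, 27.3 and 25.9 CPM in *NRF2* KO. Every line overlapped LL2 WT. Its log2 fold changes were 0.07 (95% interval −0.28 to 0.42), 0.14 (−0.21 to 0.49), −0.16 (−0.51 to 0.19) and −0.12 (−0.47 to 0.23), with adjusted p of at least 0.474, so a log2 fold change of 1 in either direction lay outside all 4 intervals.

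**Figure D3:**
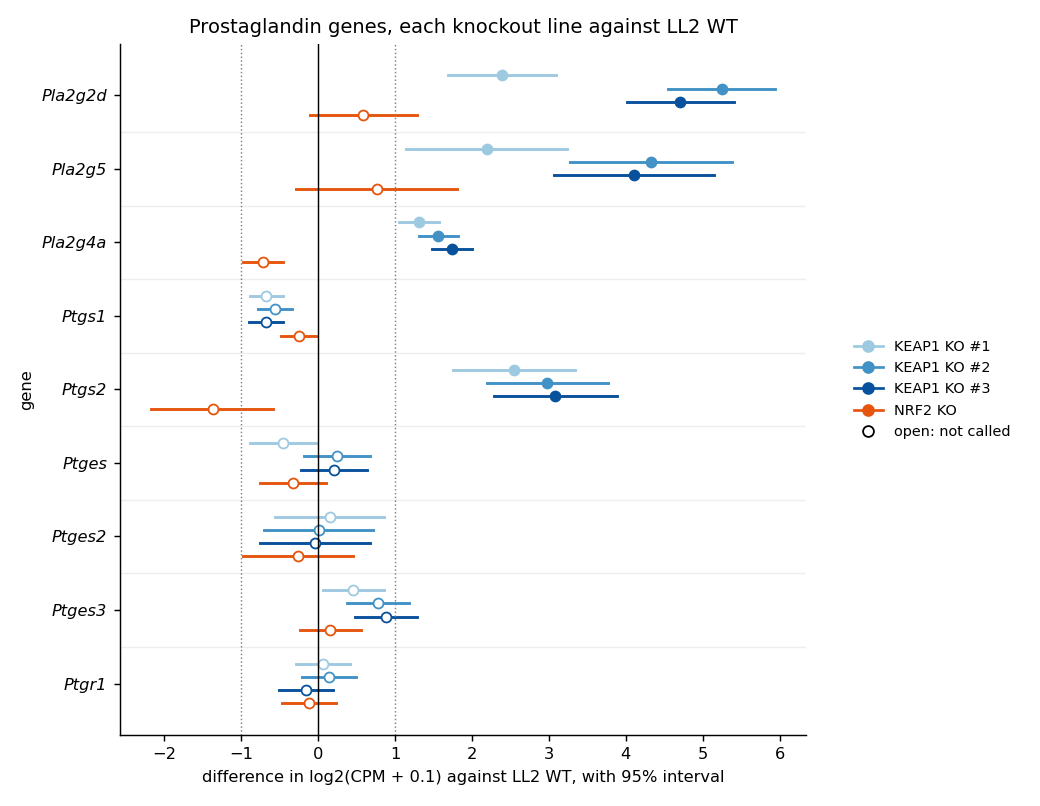
Difference in log2(CPM + 0.1) of the 9 tested members in each knockout line against LL2 WT. Points are limma estimates, filled where called; bars are 95% intervals, not adjusted for the number of genes, and dotted lines mark −1 and 1. Filled points appear in the *KEAP1* KO clones alone, for *Pla2g2d*, *Pla2g5*, *Pla2g4a* and *Ptgs2*.

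The *KEAP1* KO clones were also compared directly with *NRF2* KO, without LL2 WT. The mean of the 3 *KEAP1* KO clones exceeded *NRF2* KO by a log2 fold change of 4.24 for *Ptgs2* (95% interval 3.60 to 4.89, adjusted p = 3.43e-07) and 2.25 for *Pla2g4a* (2.04 to 2.46, adjusted p = 2.64e-09). For the low genes it was 3.53 for *Pla2g2d* (adjusted p = 5.99e-07) and 2.78 for *Pla2g5* (adjusted p = 0.000187). These were the 4 of 9 members called, against 9.94% of all tested genes, and the limit from the filter on *Pla2g2d* and *Pla2g5* applies here as well. *Ptgs1* differed by −0.38 (adjusted p = 0.00454) and *Ptges3* higher by 0.55 (adjusted p = 0.0173), both under the fold limit, while *Ptges*, *Ptges2* and *Ptgr1* lay between 0.14 and 0.33 (adjusted p of at least 0.158). For the 4 called members all 9 *KEAP1* KO samples lay above all 3 *NRF2* KO samples, an order found in 9.57% of all genes.

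The 3 *KEAP1* KO clones were not alike for the secreted phospholipases. Between clones 2 of 9 members were called in at least 1 of the 3 pairs, against 6.31% of all tested genes, and both had passed the filter only through these clones. *Pla2g2d* was higher in #2 than in #1 by a log2 fold change of 2.86 (adjusted p = 0.000131) and higher in #3 than in #1 by 2.31 (adjusted p = 0.000648), whereas #3 and #2 differed by −0.54 (adjusted p = 0.774). The pairs #2 and #1, #3 and #1, and #3 and #2 had 4.58%, 4.63% and 0.485% of all tested genes called. *Pla2g5* differed by 2.14 between #2 and #1 (adjusted p = 0.0132) and by 1.92 between #3 and #1 (adjusted p = 0.0213), but both calls were lost without *KEAP1* KO #1 replicate 1 (adjusted p = 0.0603 and 0.0871) or replicate 3 (adjusted p = 0.0572 and 0.086). The first was also lost without #2 replicate 2 (adjusted p = 0.0691) and the second without #3 replicate 2 (adjusted p = 0.0881). *Ptges* was higher in #2 and #3 than in #1 by 0.70 and 0.66 (adjusted p = 0.0394 and 0.0485), short of the fold limit, and so was *Pla2g4a*, higher in #3 than in #1 by 0.43 (adjusted p = 0.0335). For *Ptgs2* the differences of 0.43 between #2 and #1 (95% interval −0.36 to 1.22) and 0.54 between #3 and #1 (−0.26 to 1.33) were within the spread. *Keap1* transcript itself was lower in #2 and #3 than in #1, by log2 fold changes of −1.12 and −1.11. *Nqo1* did not follow that order, with means of 476, 276 and 488 CPM in #1, #2 and #3. Whether either gene bears on the differences between clones was not tested.

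Levels of different genes were compared per kb of the longest coding transcript. In LL2 WT the order of mean CPM per kb was *Ptges3* (157), *Ptgs1* (88.7), *Ptges* (28.2), *Pla2g4a* (22.3), *Ptgr1* (12.8), *Ptgs2* (7.23) and *Ptges2* (6.91), followed by *Pla2g2d* (0.00929) and *Pla2g5* (0.00753). The sample ranges of *Ptges* and *Pla2g4a* overlapped, as did those of *Ptgs2* (3.69 to 13.2) with *Ptges2* and with *Ptgr1* (10.6 to 14.6). In *KEAP1* KO #3 it ran *Ptges3* (284), *Pla2g4a* (74.6), *Ptgs1* (55.3), *Ptgs2* (52.5), *Ptges* (32.3), *Ptgr1* (11.4), *Ptges2* (6.32), *Pla2g2d* (1.41) and *Pla2g5* (0.851). On this scale the *Ptgs2* samples lay below those of *Ptges* in LL2 WT and above them in #3, and the ranges of *Ptgs1* and *Ptgs2* overlapped in #3. The 10 members together made up 0.0785% to 0.0865% of the CPM of LL2 WT samples, 0.0994% to 0.142% of those of the *KEAP1* KO clones and 0.0713% to 0.0771% of those of *NRF2* KO.

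The 4 genes that rose form 2 pairs of neighbours, a feature noticed after their values were seen. *Pla2g4a* (chr1:149829618-149961290) and *Ptgs2* lie 139 kb apart on opposite strands, with 2 annotated genes and 0 protein-coding genes between them, and *Pla2g2d* and *Pla2g5* are 17.2 kb apart with 0 genes between. *Pla2g2e*, also a secreted phospholipase gene and not a member, follows *Pla2g5* at 14.3 kb. Of 11 tested genes within 1 Mb of *Ptgs2*, 3 were called in each *KEAP1* KO clone, *Pla2g4a*, *Ptgs2* and the predicted gene *Gm9687*, all higher, and 0 in *NRF2* KO by limma. Over all tested genes 8.54%, 13.7%, 13.4% and 0.464% were called in #1, #2, #3 and *NRF2* KO, and the counts around each gene include the members themselves, which were known to be called. Of 24 tested genes within 1 Mb of *Pla2g2d*, 3 were called higher and 3 lower in #1, and 4 higher and 2 lower in each of #2 and #3. *Pla2g2d*, *Pla2g5* and *Pla2g2e* rose in all 3 clones. *Ece1* fell in all 3, *Nbl1* rose in #2 and #3 with log2 fold changes of 1.62 and 2.70, and *Tmco4* fell there by 1.25 and 1.90 on the log2 scale. Median log2 fold changes of these neighbourhoods lay between 0.09 and 0.48 in the clones.

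**Figure D4:**
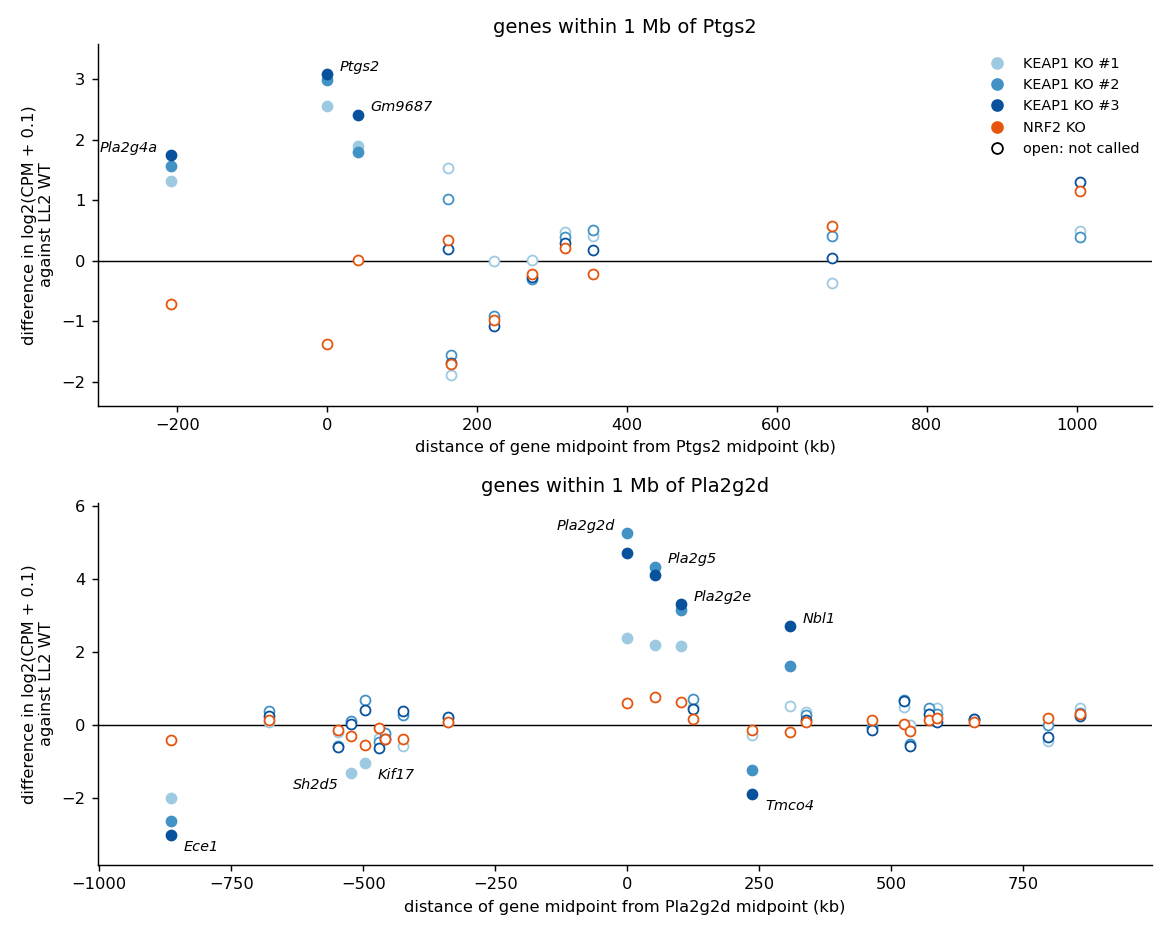
Difference in log2(CPM + 0.1) against LL2 WT for tested genes around *Ptgs2* (above) and *Pla2g2d* (below), by the distance between gene midpoints in kb, with points filled where called. The calls around *Ptgs2* are *Pla2g4a*, *Ptgs2* and *Gm9687*, while around *Pla2g2d* the 3 phospholipase genes are higher and calls occur in both directions farther out.

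The rest of the pathway was described through 65 genes in 7 lists, of which 37 passed the filter. Called higher and lower were 7 and 1 of them in *KEAP1* KO #1, 9 and 2 in #2, 9 and 1 in #3 and 0 and 0 in *NRF2* KO. This is 21.6%, 29.7%, 27.0% and 0% of the tested genes of these lists, beside 8.54%, 13.7%, 13.4% and 0.464% of all genes. Of the genes called higher in all 3 clones, *Pla2g2e*, *Mgll*, *Ptgir*, *Akr1c18* and *Aloxe3* passed the filter only through the *KEAP1* KO clones. None of them exceeded 0.361 CPM in any LL2 WT or *NRF2* KO sample. The shares called in the clones are therefore tied in part to the filter and are a description only. Their median log2 fold changes were 0.16, 0.15, 0.28 and −0.02.

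Upstream of the cyclooxygenases, 10 of 20 further phospholipase A2 genes were tested, and *Pla2g2e* was called higher in all 3 clones. It was listed at 0 in the 3 LL2 WT samples and reached 0.154 to 0.956, 0.511 to 1.31 and 0.419 to 2.05 CPM in #1, #2 and #3. The call in #1 (adjusted p = 0.022) was lost in 7 of 17 alternatives (adjusted p up to 0.195). *Plaat3*, a phospholipase and acyltransferase, was called lower in #2 (−1.44, adjusted p = 0.00117). Among 11 genes of arachidonate release and recycling, 10 were tested, and *Mgll* rose in all 3 clones. It encodes monoacylglycerol lipase, which frees arachidonate from an endocannabinoid, and was at 0, 0 and 0.00981 CPM in parental cells and at 0.458 to 1.40 CPM over the clones. *Faah*, the amide hydrolase of the same lipid family, fell in #2 (−1.24, adjusted p = 0.0111).

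Of 8 other prostanoid synthases 4 were tested. *Akr1c18*, an aldo-keto reductase that also reduces prostaglandins, rose from at most 0.143 CPM in LL2 WT to 4.24 to 7.11 CPM in the clones, differing by 5.44, 5.11 and 5.13 on the log2 scale (adjusted p = 2.78e-07, 2.81e-07 and 2.54e-07). *Akr1b3*, aldose reductase, which can form prostaglandin F, was at 288, 349 and 120 CPM in parental cells and rose in #2 to 1154, 1158 and 682 CPM (2.08, adjusted p = 0.00162) and in #3 to 755, 808 and 445 CPM (1.49, adjusted p = 0.0119). *Cbr1*, a carbonyl reductase that converts prostaglandin E into prostaglandin F, rose in #2 and #3 (1.06 and 1.49) and stood at 0.83 in #1 (adjusted p = 0.000437), under the fold limit. The median of this list was 0.82, 1.58 and 1.49 in #1, #2 and #3. The aldo-keto reductases have close paralogs, and how reads were split among them was not examined. The prostaglandin D and prostacyclin synthase genes *Ptgds*, *Hpgds* and *Ptgis* did not exceed 0.526 CPM in any sample.

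Of 5 genes for further breakdown and transport 4 were tested. *Abcc4*, the exporter that carries prostaglandin E2 out of cells, rose in every clone, from 20.3 to 21.4 CPM in LL2 WT to 65.1 to 77.3, 83.3 to 94.9 and 87.4 to 92.5 CPM in #1, #2 and #3. These differences of 1.80, 2.11 and 2.1 on the log2 scale had a standard error of 0.09 (adjusted p = 4.06e-08, 6.37e-09 and 4.08e-09), and in *NRF2* KO it was −0.17 (adjusted p = 0.526). Of 10 prostanoid receptor genes 3 were tested and 2 were called in each clone. *Ptgir*, the prostacyclin receptor, went from at most 0.0411 CPM in LL2 WT to 0.203 to 0.999, 1.07 to 4.60 and 0.958 to 3.77 CPM in #1, #2 and #3, and its call in #1 (adjusted p = 0.0244) was lost in 9 of 17 alternatives (adjusted p up to 0.30). *Pparg*, a nuclear receptor for prostaglandin D metabolites, rose by 1.16, 1.08 and 1.25 on the log2 scale. The prostaglandin E receptors *Ptger2*, *Ptger3* and *Ptger4* were at or below 0.0832 CPM in every sample, and *Ptger1* lay between 0.621 and 2.09 CPM.

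Among 8 lipoxygenase and leukotriene genes 4 were tested. *Alox5ap*, the membrane partner of the leukotriene-forming lipoxygenase, fell in #1 (−2.83, adjusted p = 0.00426) and #3 (−2.28, adjusted p = 0.0104), and *Aloxe3*, an epidermal lipoxygenase, was called higher in all 3 clones (1.39, 2.23 and 2.2). Its call in #1 was lost in 7 of 17 alternatives (adjusted p up to 0.124), among them those without LL2 WT replicate 3 and without #1 replicate 2 or 3. The 3 genes listed for the macrophage migration inhibitory factor pathway, *Mif*, *Cd74* and *Cd44*, had 2 tested and 0 called in any comparison with LL2 WT by limma. *Cd44* was at 156 to 193 CPM over the *KEAP1* KO clones, below every LL2 WT sample (238 to 307 CPM), as in 7.69% of all tested genes. *NRF2* KO was below as well (188 to 211 CPM), and *Mif* was above every LL2 WT sample in #3 alone. The list leaves out *Pla2g2d* and *Ptgs2*, which the paper counts in its pathway of innate immunity regulation by this factor. In the direct comparison with *NRF2* KO, 11 of the 37 genes were called higher and 1 lower, or 32.4% of them beside 9.94% of all tested genes, which added the thromboxane synthase *Tbxas1* (1.52) and the prostaglandin importer *Slco2a1* (1.08) to the higher ones. These added genes too passed the filter only through the *KEAP1* KO clones.

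**Figure D5:**
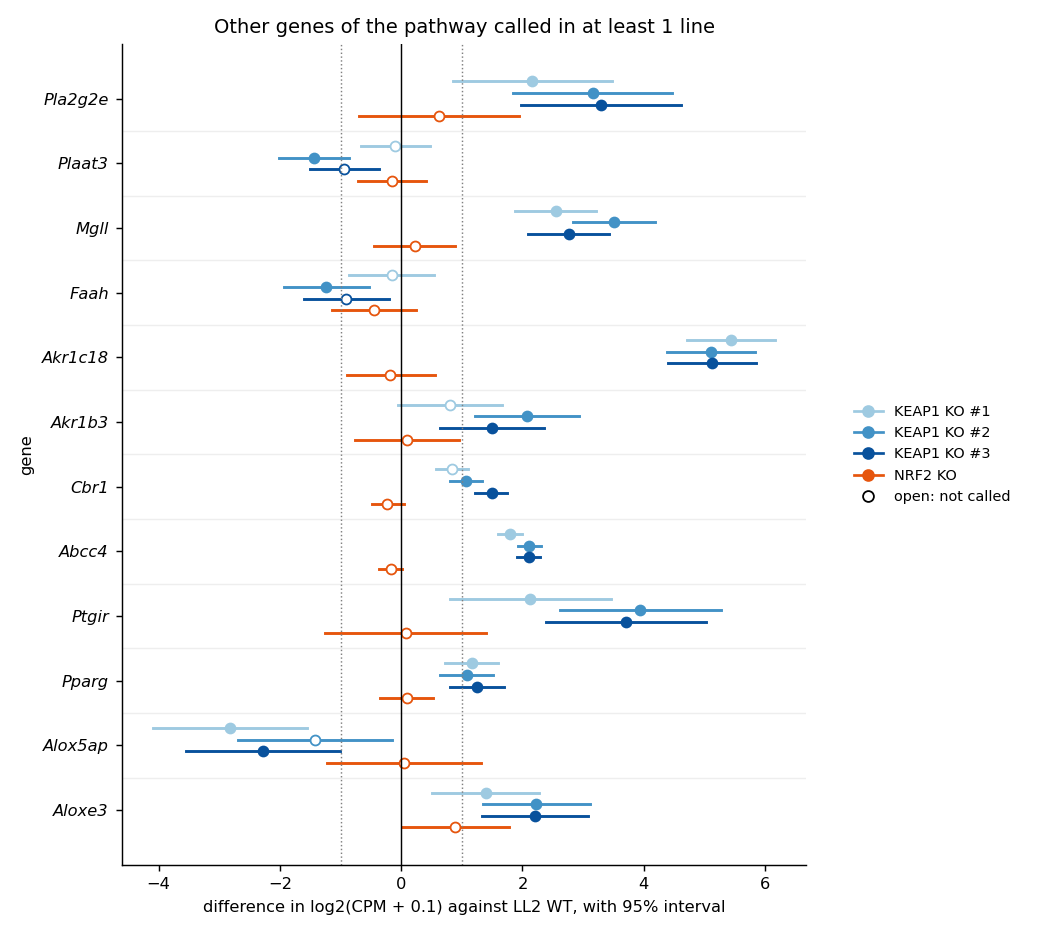
Difference in log2(CPM + 0.1) against LL2 WT, with 95% intervals not adjusted for the number of genes, for the genes of the other pathway lists that were called in at least 1 line. Filled points are called and dotted lines mark −1 and 1; *Akr1c18*, *Abcc4*, *Mgll*, *Ptgir*, *Pla2g2e*, *Pparg* and *Aloxe3* are filled in all 3 *KEAP1* KO clones and none is filled in *NRF2* KO.

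The genes whose log2 levels were most like those of *Ptgs2* over the 15 samples, among 11675 with a mean of at least 1 CPM, were *Ahr* (Pearson r = 0.984), *Dnajb4* (0.984), *Stom* (0.983), *Mocos* (0.98) and *Gbe1* (0.978). *Ahr*, the aryl hydrocarbon receptor, had means of 3.74 CPM in parental cells, 12.5, 14.5 and 20.2 CPM in the clones and 2.36 CPM in *NRF2* KO. For *Ptgr1* the nearest were *Cep55* (0.857), *Tor2a* (0.816), *Cpt1b* (0.805), *Reep4* (0.802) and *Gpd1l* (0.80). These correlations describe 15 samples of 5 lines that share the same 3 replicate numbers.

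Replicate 3 stood apart for several members. It was the highest of the 3 samples in all 5 lines for *Ptges* and the lowest in all 5 for *Ptges2* and *Ptges3*, orders found in 3008 and 1493 of the 14652 tested genes. For *Ptgs2* it was the highest in LL2 WT and in the 3 *KEAP1* KO clones but not in *NRF2* KO. What sets replicate 3 apart is not given in the sources used here.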

How the data were processed

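RNA of 15 cultures, 3 biologic replicates of each of 5 lines, was sequenced by the authors as paired-end poly(A) libraries with 30 M reads on average and quantified with Kallisto. The authors deposited CPM per gene, on a linear scale and with nearly the same sum in each sample. The study's methods name the GRCm38.p6 transcriptome, whereas the submitters' processing notes name GRCm39, bcl2fastq 1.9.0 and kallisto. Coordinates and sequences here are of GRCm38.p6, and the CPM carry none. Read numbers per sample are not given in the sources used here, so no counting intervals could be made.

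Values were analysed as log2(CPM + 0.1) after removing genes whose 15 values summed to less than 3 CPM, which kept 14652 of 35880 genes. A row without a gene name, 0.0214% to 0.0491% of the CPM, was left out. Line means were fitted over all 5 lines with limma 3.58.1 in R 4.3.3 (trended empirical Bayes, two-sided moderated tests), and p-values were adjusted by Benjamini-Hochberg over all tested genes within each comparison. They measure the spread among these cultures only. The steps were tested on simulated data for *KEAP1* KO #3 against LL2 WT over 14652 genes, where 177 of 200 changed genes were called in the right direction, among them 130 of the 138 changed by 2 or 3 on the log2 scale, and 3 unchanged genes were called. The changed genes were drawn from those above about 1 CPM in LL2 WT, and the noise held no shift shared by replicates. The simulation therefore does not cover calls of genes as low in LL2 WT as *Pla2g2d* and *Pla2g5*. Ratios and plots were made with Python 3.11.15.

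The members and all gene lists were chosen with earlier results of these data known. Named genes were the 10 members, genes of the other pathway lists called against LL2 WT, marker genes at 1 CPM or more, the genes that check the lines, and the 5 genes most like *Ptgs2*, *Ptgr1* and *Hpgd* (none for *Hpgd*, listed at 0); others named in the text were chosen after their values were seen. Samples with the same replicate number deviated together with a median r of 0.276 over 30 pairs, against −0.192 over 60 pairs with different numbers. Same-numbered r was 0.422 to 0.631 for replicate 3, 0.126 to 0.529 for replicate 2 and −0.0221 to 0.278 for replicate 1. Every same-numbered r exceeded 0.1 in only 2 of 10 pairs of lines, and the main tests did not pair the samples. They therefore leave in their spread a shift shared by samples of the same number, clearest for replicate 3. Calls that changed with a replicate block are given below. Alternatives were other pseudocounts, filters, scalings and weights, no trend, only the lines compared, a replicate block, replicate 3 as a covariate, and leaving out each sample.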

Additional observations from a re-analysis of the deposited data

Results flagged for a closer look

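Several members differed between groups of knockout clones by a test of that difference itself. The mean of the 3 *KEAP1* KO clones lay above *NRF2* KO by log2 fold changes of 4.24 for *Ptgs2*, 2.25 for *Pla2g4a*, 3.53 for *Pla2g2d* and 2.78 for *Pla2g5*, with all 9 *KEAP1* KO samples above all 3 *NRF2* KO samples for each, an order found in 9.57% of all tested genes. Among the *KEAP1* KO clones, *Pla2g2d* was higher than in #1 by 2.86 in #2 and by 2.31 in #3. *Pla2g5* was higher than in #1 by 2.14 in #2 and by 1.92 in #3, and both of these differences lost their call when single samples were left out.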

How the results depend on the processing

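With pseudocounts of 0.5 and 1 CPM the members called in *KEAP1* KO #1 numbered 2 in place of 4, since *Pla2g2d* and *Pla2g5* were lost. In *NRF2* KO 1 member, *Ptgs2*, was called with the replicate block (adjusted p = 0.0263 from limma) and with replicate 3 as a covariate (adjusted p = 0.0262), in place of 0, and the replicate block changed no other count of members; genes called over the whole table in that line numbered 68, or 179 with the block, 173 with the covariate and 7 with only its 2 lines in the model. Between the clones 1 member was called in place of 2 with only the lines compared, and 1 to 2 when single samples were left out, *Pla2g5* being lost without *KEAP1* KO #1 replicate 1 or 3. The cause was not tested. For *Ptges2*, leaving out single samples gave −0.23 to 0.43 in #1, −0.37 to 0.29 in #2, −0.43 to 0.24 in #3 and −0.64 to 0.02 in *NRF2* KO, and the value in #2 was −0.01 after rescaling by the median ratio and −0.02 after quantile normalization. *Ptges3* in *NRF2* KO ranged from −0.03 to 0.32. *Ptgr1* in #1 ranged from −0.06 to 0.25 and was −0.04 and −0.02 with those 2 scalings. *Ptges3* in #3 was called without LL2 WT replicate 2 (1.03, adjusted p = 0.00163). Of 1515 values of single genes under an alternative, 1436 kept their direction and side of the threshold, 59 lost and 3 gained a call, and 17 turned sign. Unknown read numbers limit what can be said of genes near 0.1 CPM.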
